A study of Mus musculus with 2 samples.

Results

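Genes whose official name begins with a cluster of differentiation (CD) number were examined in the epithelium and the fibers of the embryonic mouse lens. CD numbers were first given to proteins that antibodies recognise on the surface of white blood cells, and many of these proteins are also made by epithelial and neural cells. The members were all probes whose platform gene symbol was Cd, followed by a number and at most a short suffix. They came to 172 probes for 91 genes, out of 34885 named probes for 19057 genes.

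The series holds 1 array of lens epithelium and 1 array of lens fibers, both wild type and at embryonic stage E12.5. At this stage the epithelium covers the front of the lens and still divides, and the fibers elongate behind it and fill with crystallins. No strain, sex, number of pooled embryos or method of separation is given in the sources used here. With 1 array for each tissue there was no replicate, so no test was made, and every ratio describes these arrays only. In bulk tissue, fewer cells of a type and less RNA per cell cannot be told apart.

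Intensities are quantile normalized, and all ratios are fibers over epithelium. A gene was read from its brightest probe over both arrays. The floor of an array is the intensity below which 95% of a set of 1577 probes lie. These probes belong to 1305 genes that lens cells are not thought to use, such as odorant, pheromone and trace amine receptors and the keratin-associated proteins of hair. The floor was 44.6 in epithelium and 32.1 in fibers. For a gene that passed 1 floor and not the other, the text gives a bound, its intensity over the floor it missed, as "at least N-fold". A bound under 1 gives no direction. As the epithelium floor was the higher one, this could happen only to genes above the fibers floor alone. The unequal floors therefore draw bounds, and medians that include them, towards epithelium. The tissue labels were checked on markers: all 9 fiber markers on the array (Mip, Lim2, Bfsp2, Crybb1, Cryba1, Crygc, Cryaa, Prox1 and Hsf4) had a 2-fold or larger excess in fibers. Of 6 epithelium markers, Cdh1, Gja1, Pax6, Pdgfra and Tfap2a had one in epithelium, and Foxe3, a forkhead factor of the epithelium, was below the floor on both arrays.

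The CD-named genes were divided by known function. The class called widely expressed held 22 genes: tetraspanins, complement regulators, mucin-like and lipid-anchored glycoproteins, and receptors found on many cell types. Its name follows the kind of protein, and the range of tissues of each mouse gene was not checked. The blood-cell class held 61 genes of lymphocytes, antigen-presenting cells and myeloid cells. A vascular and mesenchymal class held 5 genes. The remaining 3, Cd2ap, Cd2bp2 and Cd3eap, are named after CD proteins that their products were found to bind and are not surface proteins themselves.

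Cd24a had the highest ratio of the 14 CD-named genes above both floors and was 10.6-fold higher in fibers. The 6 other widely expressed members above both floors differed by less than 2-fold. Of the 15 blood-cell members that passed a floor, 12 read higher in epithelium, 7 of them as bounds whose direction was fixed in advance. Beside these, 2873 of all 6451 genes that passed a floor read higher in epithelium, and 74 of 121 in the set that defines the floors. Of the 91 genes, 26 (28.6%) passed a floor, beside 33.9% of all named genes. Among these 26, Cd24a and Cd300lb had a 2-fold or larger excess in fibers, and 5 had one in epithelium: Cd177, Cd300a, Cd300ld, Cd300ld3 and Cd27. Over all 6451 genes that passed a floor, 15.5% had such an excess in fibers and 18.5% in epithelium. Housekeeping genes were themselves higher in fibers, and with the arrays matched on them the counts of CD-named genes were 2 in fibers and 17 in epithelium, beside 3.96% and 44.7% of all measured genes. The median log2 ratio was -0.47 over the 26 CD-named genes and 0.00 over all genes that passed a floor. Genes without direction entered these and all other medians as 0. They were 3 of the 26 and 773 of the 6451, and the median of 0.00 falls among them. Bounds and genes without direction made up 12 of the 26, and each bound could point only towards the array on which the gene was measured.

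**Figure D1:**
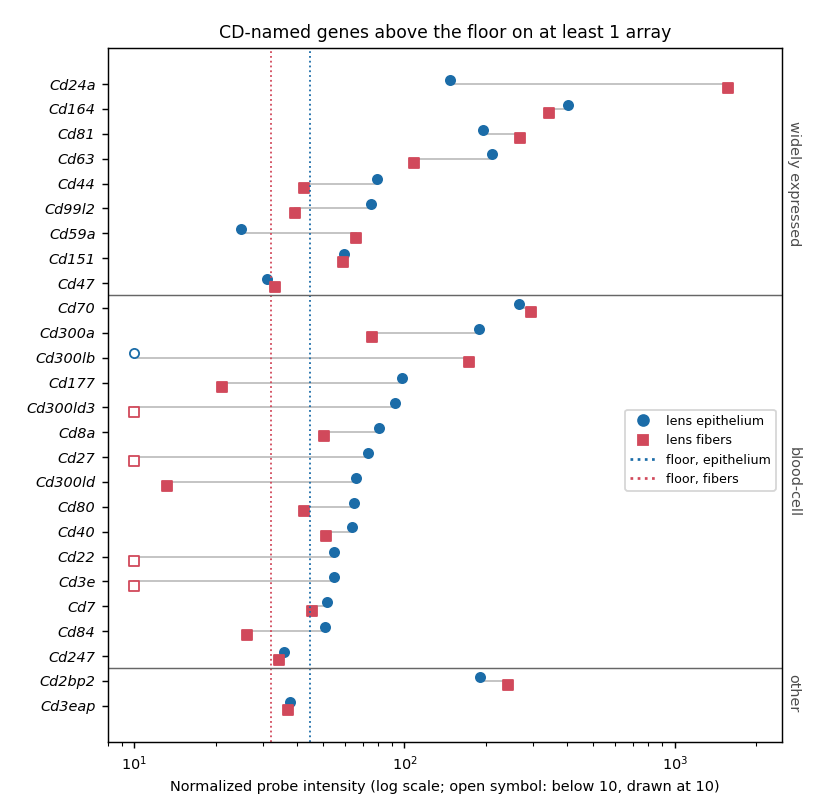
Normalized intensity of the 26 CD-named genes that passed a floor, on a log axis, with lens epithelium as circles and lens fibers as squares, 1 array each, and the floors as dotted lines. Cd24a has the widest gap in favour of fibers among genes measured on both arrays, 148 against 1574, and most blood-cell members lie near the floors.

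Cd24a encodes a very short protein core that is heavily glycosylated and held in the membrane by a lipid anchor. It is known from B cell precursors, neutrophils and red cells, and also from developing neurons and epithelia. Its single probe read 148 in epithelium and 1574 in fibers, a log2 ratio of 3.41. The epithelium signal was 9.41% of the fibers signal. Among 2986 genes above the floor on both arrays, 9 had a higher ratio. Processed copies of this gene exist in the mouse genome, and whether the probe separates them was not tested.

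No replicate error was available, so the ratio was set beside the spread seen within the arrays. The 32 silent-gene probes that were above both floors had a standard deviation of 0.84 on the log2 scale, and the widest of them was 2.37. As single genes, ratios and bounds together, the silent set reached 3.38, a bound. For 472 other genes with 2 probes above both floors, the log2 ratios of the brighter 2 probes differed by a median of 0.50, with a 90th percentile of 1.84, and had opposite signs in 122 cases (25.8%). The Cd24a ratio of 3.41 was above the widest silent-probe ratio and above that 90th percentile, while the highest silent-gene value is itself a bound and cannot be ranked against it. Housekeeping genes also spread widely. Of the 16 that passed a floor, 14 read higher in fibers, 9 of them by 2-fold or more, and 2 read higher in epithelium. Their log2 values, bounds included, ran from -0.71 to 3.17. The other ratios of CD-named genes above both floors, including the 2.49-fold of Cd300a, were below 1.84 in size on the log2 scale.

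Of the other mucin-like and lipid-anchored glycoproteins, 2 of the 5 on the array were above a floor. Cd164, a sialomucin of endosomes and the cell surface, read 404 in epithelium and 343 in fibers (log2 ratio -0.24). Cd99l2, an adhesion protein related to Cd99, read 75.0 and 39.3 (-0.93). A second Cd99l2 probe pointed the other way, 7.93 in epithelium and 45.4 in fibers, above the floor in fibers only and with a bound of at least 1.02-fold. Cd99, Cd109 and Cd164l2 were below the floor on both arrays, at or under 4.93 in epithelium and 4.07 in fibers.

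Tetraspanins are membrane proteins with 4 passes through the bilayer that gather integrins and other partners into small membrane domains. Of 5 widely expressed members with CD names, 3 were above both floors, and none of the 3 differed by 2-fold. Cd63, a tetraspanin of late endosomes and exosomes, read 211 in epithelium and 108 in fibers (1.95-fold). Its 2 other probes were below the floor on both arrays. Cd81, a partner of integrins and immunoglobulin-type proteins, read 195 and 268 (log2 ratio 0.46), a direction that turned to -0.47 with housekeeping genes as the reference. Cd151, a laminin-integrin partner, read 59.5 and 59.4 (0.00), and a second probe read 46.6 and 26.1, at least 1.45-fold higher in epithelium. Cd9 and Cd82 were below the floor, at -7.06 and 2.88 in epithelium and -6.93 and 4.07 in fibers, each with 1 probe. A probe near 0 does not show that the transcript is absent.

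Receptors of wide distribution were low. Cd44, the hyaluronan receptor, read 79.3 in epithelium and 42.4 in fibers by its brightest probe (1.87-fold). Of its 9 probes, 1 other passed a floor, at 9.92 in epithelium and 36.2 in fibers, with no direction. Cd47, the surface signal that restrains engulfment by macrophages, read 30.9 and 33.2 and was just above the fibers floor, with no direction. Cd200, Cd276, Cd302 and Cd320 were below both floors, and the highest of their readings was 21.0, for Cd200 in epithelium.

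The complement regulators protect cells from lysis by complement. Of these 5 genes Cd59a, the inhibitor of the terminal pore, passed a floor, reading 24.9 in epithelium and 66.0 in fibers, at least 1.48-fold higher in fibers, with no direction relative to housekeeping genes. With the floor at the 90th percentile of the silent set its bound was 1.24 on the log2 scale, past 2-fold. Cd46, Cd55, Cd55b and Cd59b read between 0.90 and 6.08 on both arrays, below the floors. In the widely expressed class as a whole, 9 of 22 genes (40.9%) were above a floor, beside 33.9% of all named genes. Of the 9, 1 was 2-fold or more higher in fibers and none in epithelium, beside 15.5% and 18.5% of all measured genes. The class had a median log2 ratio of 0.00. Scaled to housekeeping genes, that median was -0.94, beside -0.69 over all measured genes. The 2-fold counts were then 1 in fibers and 4 in epithelium, beside 3.96% and 44.7% of all measured genes.

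**Figure D2:**
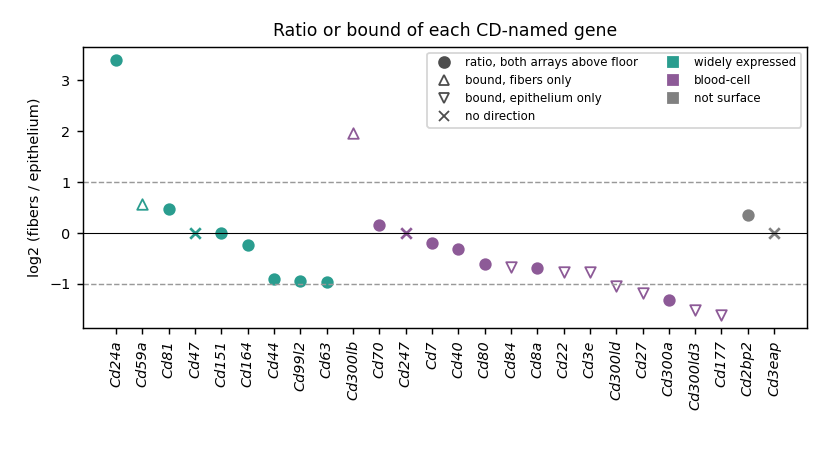
Log2 ratio of fibers over epithelium for each measured CD-named gene, by class. Filled circles are ratios from both arrays, open triangles are bounds, crosses are genes with no direction, and dashed lines mark 2-fold. Cd24a lies at 3.41, and the blood-cell members run from 1.96 (Cd300lb) down to -1.61 (Cd177).

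Blood-cell members were read against the silent set, which shows how often a probe passes the floor where no transcript is thought to be present. At the probe level, 12.2% of 115 blood-cell probes were above the epithelium floor and 7.83% above the fibers floor. The set of silent genes stood at 4.95% on both arrays by construction. The 43 probes of the widely expressed class stood at 18.6% and 25.6%, and all named probes at 14.8% and 20.1%. Probes that read above 100 on at least 1 array made up 3.48% of the blood-cell class, 1.59% of the silent set, 9.30% of the widely expressed class and 10.03% of all named probes.

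**Figure D3:**
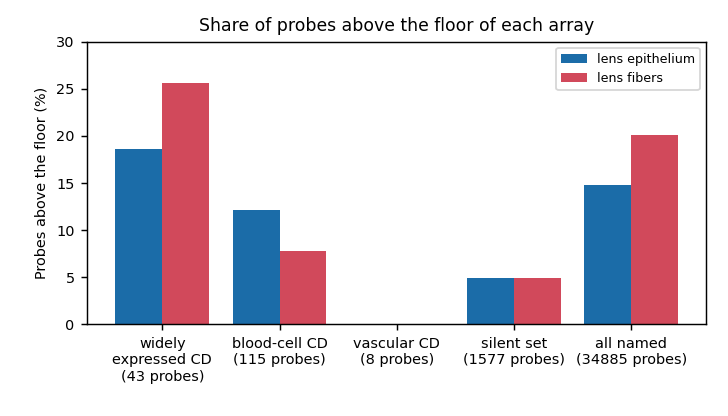
Share of probes above the floor of each array, in percent, for 3 classes of CD-named genes, the silent set that defines the floor, and all named probes. Blood-cell probes lie between the silent set and all named probes, and no vascular probe is above either floor.

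Of 61 blood-cell genes, 15 (24.6%) were above a floor, beside 33.9% of all named genes. Of the 15, 1 was 2-fold or more higher in fibers and 5 in epithelium, beside 15.5% and 18.5% of all measured genes. The median log2 ratio of the 15 was -0.68. The silent genes that passed a floor, 121 of 1305 (9.27%), leaned the same way, with 6 at 2-fold or more in fibers, 31 in epithelium and a median of -0.49. The epithelium direction of the blood-cell class was therefore also seen among genes taken to be silent. Blood-cell genes had more probes each, 115 for 61 genes against 1577 for 1305, so the gene shares are not on equal terms. By probe, 13.9% of the blood-cell class and 7.86% of the silent set were above a floor on at least 1 array. Scaled to housekeeping genes, both medians moved together, to -1.61 for the blood-cell class and -1.43 for the silent set. In epithelium 12 of 15 and 72 of 120 genes then reached 2-fold, beside 44.7% of all measured genes.

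Among T and natural killer cell genes, 6 of 21 were above a floor. Cd70, a ligand of the tumour necrosis factor family on activated lymphocytes, read 265 in epithelium and 294.5 in fibers (log2 ratio 0.15, or -0.78 relative to housekeeping genes), by a single probe. Its receptor gene Cd27 read 73.0 and 7.07, at least 2.27-fold higher in epithelium. The other Cd27 probes were below both floors and read lower in epithelium than in fibers. The T cell coreceptor chain Cd8a read 80.4 and 50.3 (1.60-fold), while its second probe read -8.09 and -5.92. Cd7 read 51.8 and 45.4 (1.14-fold). The T cell receptor component Cd3e read 54.7 and 6.08, at least 1.70-fold higher in epithelium, and Cd247, its zeta chain, read 35.8 and 34.2, with no direction. The other probes of Cd3e and Cd247 were below both floors. Cd3d and Cd3g, which lie next to Cd3e on chromosome 9 and make up the same receptor complex, were below both floors, as were Cd4, Cd8b1, Cd28 and Cd5.

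Myeloid members gave 6 of 19 above a floor, and 5 of the 6 reached 2-fold, 1 in fibers and 4 in epithelium. Only Cd300a did so as a ratio, and the others did as bounds. Over all genes that passed a floor, 15.5% had such an excess in fibers and 18.5% in epithelium. Among the 121 silent genes that passed one, 6 and 31 had it. Cd300a, an inhibitory receptor of myeloid cells, read 189 in epithelium and 75.9 in fibers (2.49-fold higher in epithelium). A second probe read 117 and 69.1 (1.69-fold), in the same direction, and the remaining probe was below the floors. Its neighbour on chromosome 11, Cd300lb, an activating receptor of the same family, read the other way, -6.06 in epithelium and 173.6 in fibers, at least 3.89-fold higher in fibers, by 1 probe. Cd300ld and Cd300ld3 read 65.9 and 92.0 in epithelium and were at least 2.05-fold and 2.86-fold higher there. The other Cd300ld3 probes were below both floors. The sequences of these paralogs are related, and cross-binding between their probes was not tested.

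Cd177, a neutrophil glycoprotein, read 97.9 in epithelium and 21.0 in fibers, at least 3.05-fold higher in epithelium, and its second probe read -2.14 and 29.1, below both floors. Cd84, a leukocyte adhesion receptor, read 50.7 and 26.1, at least 1.58-fold higher in epithelium, and its other probes were below both floors. The monocyte and macrophage members Cd14, Cd33, Cd53 and Cd163 were below both floors.

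B cell and antigen-presenting members gave 3 of 21 above a floor. Cd40, a receptor of the tumour necrosis factor family, read 63.8 and 51.2 (1.24-fold higher in epithelium), and its 4 other probes were below both floors. Cd80, a costimulatory ligand, read 64.9 and 42.4 (1.53-fold). The other Cd80 probe was below both floors and read lower in epithelium than in fibers. Cd22, a B cell lectin, read 54.7 and -7.91, at least 1.70-fold higher in epithelium, and its other probes were below both floors. The invariant chain gene Cd74, Cd79b of the B cell receptor, and all 7 lectin genes Cd209a to Cd209g, which are neighbours on chromosome 8, were below both floors.

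All 5 vascular and mesenchymal members, Cd34 and Cd93 of endothelium and progenitors, the fatty acid receptor Cd36, Cd248 of pericytes and Cd300lg, were below both floors, at most 23.0 in epithelium and 28.1 in fibers. Of the 3 genes that do not encode surface proteins, Cd2bp2, a spliceosome component, read 190 and 243 (log2 ratio 0.35, or -0.59 relative to housekeeping genes), with a second probe below both floors. Cd3eap, an RNA polymerase I subunit, read 37.9 and 37.1, with no direction, and a second probe read 47.7 and 27.1, at least 1.48-fold higher in epithelium. Cd2ap, a cytoskeletal adaptor, was below both floors.

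Markers of other cell types outside the CD names were also mostly below the floor. Of 12 leukocyte markers, 2 passed it, Aif1 (54.7 in epithelium and 34.2 in fibers) and Csf1r (29.9 and 36.2). Ptprc, the pan-leukocyte phosphatase CD45, read 1.90 and 3.10, and the myeloid adaptor Tyrobp read -4.09 and -6.93. The leukocyte list summed to 120 in epithelium and 106 in fibers, counting values above 0. Such list sums include readings below the floors. The median reading of the leukocyte list was 0.89 in epithelium and 3.10 in fibers, beside 1.90 and 2.11 over the silent genes. Of 8 endothelial markers, Tek alone passed, at 6.92 and 83.4, and Pecam1 read 2.88 and -1.85, with list sums of 89.3 and 112. Of 3 platelet markers, Gp9 read 2261 and 986.5, while Pf4 read -2.14 and 1.09 and Itga2b 8.94 and 10.1. Of 6 erythroid markers, Hbb-y (121 and 124) and Hba-a1 (14.8 and 76.7) passed, with list sums of 164 and 230. Of the 7 mesenchyme markers only Tfap2b passed, at 209 and 36.2, and of the 4 retina markers only Sfrp2, at 1256 and 140. Whether lens cells themselves make the transcripts of markers that passed, such as Tfap2b and Sfrp2, was not tested. The part of these other cell types in the blood-cell readings was not tested either.

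**Figure D4:**
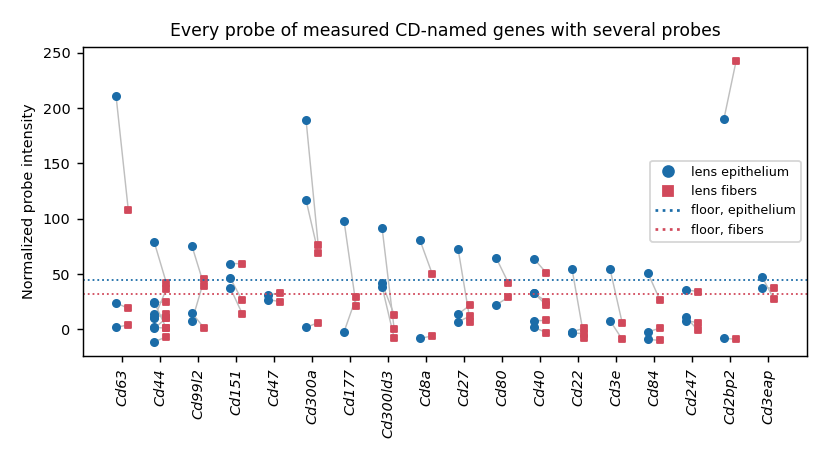
Normalized intensity of every probe of the 18 measured CD-named genes with several probes, on a linear axis, with each probe's epithelium value (circle) joined to its fibers value (square). For 13 of the 18 genes 1 probe passed a floor and the others did not, as for Cd63, Cd8a and Cd2bp2.

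How far a member rests on 1 probe was counted over the whole family. Of the 91 genes, 44 had 1 probe and 47 had several, up to 9. Among the 18 measured genes with several probes, 13 passed a floor by 1 probe and 5 by more than 1: Cd151, Cd3eap, Cd300a, Cd44 and Cd99l2. In that group only Cd300a had several probes above both floors. With the floor set at the 99th percentile of the silent set, 111 in epithelium and 80.7 in fibers, 8 members stayed above it: Cd24a, Cd164, Cd63, Cd81, Cd70, Cd300a, Cd300lb and Cd2bp2. At that floor Cd24a alone kept a 2-fold excess in fibers, and Cd300a, at least 2.34-fold, alone kept one in epithelium.

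Other membrane genes gave the setting for these values. Of all named genes 33.9% were above a floor, and 15.5% of these were 2-fold or more higher in fibers and 18.5% in epithelium. Of 23 tetraspanins without a CD name, 8 were above a floor, none 2-fold or more higher in fibers and 2 higher in epithelium (median log2 ratio -0.06). Tspan18 read 142 and 0.10, at least 4.41-fold in favour of epithelium, and Tspan31 read 99.8 and 26.1, at least 3.11-fold. Tspan12, a Norrin receptor component, read 62.7 and 27.1, at least 1.95-fold, and Tspan14, a partner of the protease Adam10, read 143 and 212 (0.57). Scaled to housekeeping genes, 4 of the 8 reached 2-fold in epithelium and none in fibers, beside 44.7% and 3.96% of all measured genes. The sign of Tspan14 turned, since none of the 8 stayed higher in fibers.

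Among 11 known partners of tetraspanins, 4 (36.4%) were above a floor, beside 33.9% of all named genes. Adam10, the shedding protease whose traffic tetraspanins direct, read 12.9 in epithelium and 262 in fibers, at least 5.86-fold higher in fibers. The laminin receptor chain Itga6 read 47.7 and 111 (2.34-fold higher in fibers), and Itgb1, the shared beta 1 chain, read 307 and 531 (log2 ratio 0.79). Itga3 went the other way, 111 and 27.1, at least 3.44-fold higher in epithelium. Scaled to housekeeping genes, 1 of the 4 reached 2-fold in fibers and 1 in epithelium, with 2 on either side of 0. The shares over all measured genes were then 3.96% in fibers and 44.7% in epithelium.

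A larger group of surface proteins also carries CD numbers but is named otherwise. Of 62 such genes, 26 (41.9%) were above a floor, beside 33.9% of all named genes. Of the 26, 7 were 2-fold or more higher in fibers and 8 in epithelium, beside 15.5% and 18.5% of all measured genes. The median of the 26 was -0.05. Scaled to housekeeping genes, the counts were 4 and 13, beside 3.96% and 44.7% of all measured genes. The protease Adam17 read 61.7 and 632 (10.3-fold higher in fibers), and the Notch ligand Jag1 read 117 and 721 (6.17-fold). Cdh1, E-cadherin, read 854.5 and 164 (5.22-fold higher in epithelium).

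**Figure D5:**
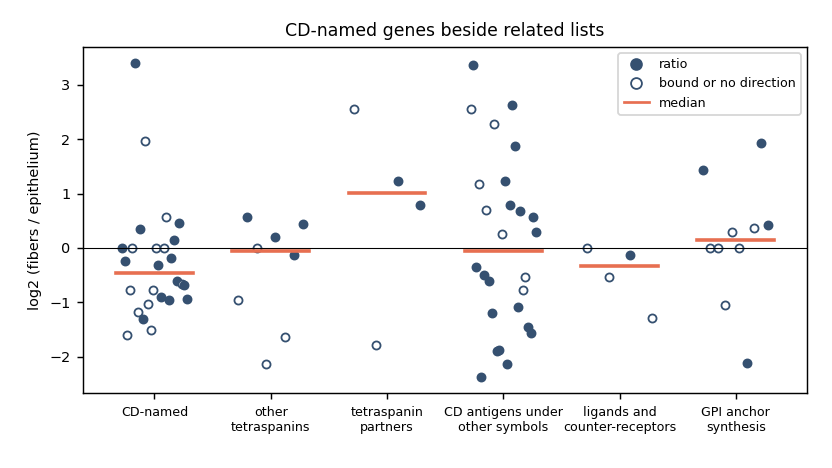
Log2 ratio of fibers over epithelium for CD-named genes and 5 related lists, with ratios as filled points, bounds and genes without direction as open points, and medians as bars. The CD-named median is -0.47, and that of the CD antigens under other symbols is -0.05.

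Ligands and enzymes on which CD-named proteins depend were also read. Of 16 ligands and counter-receptors, 4 were above a floor: Sirpa, the receptor of Cd47, read 78.2 and 30.1, at least 2.43-fold higher in epithelium. Selp, a selectin that binds Cd24, read 46.6 and 16.2, at least 1.45-fold higher in epithelium, Siglech read 140 and 128 (log2 ratio -0.14), and Has2, a hyaluronan synthase, read 38.8 and 44.3, with no direction. Cd24a, Cd59a and several blood-cell members are held by a glycosylphosphatidylinositol anchor. Of 24 genes that build it, 10 (41.7%) were above a floor, beside 33.9% of all named genes. Of the 10, 2 were 2-fold or more higher in fibers and 2 in epithelium, beside 15.5% and 18.5% of all measured genes. Pigp (52.7 and 199.5, 3.79-fold) and Dpm1 (49.8 and 135, 2.71-fold) were higher in fibers. Pigk, of the transamidase, read 154 and 35.2 (4.37-fold higher in epithelium), and Piga, of the first step, read 67.0 and 5.08, at least 2.09-fold higher there. Scaled to housekeeping genes, none of the 10 was 2-fold higher in fibers and 2 were in epithelium, beside 3.96% and 44.7% of all measured genes.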

How the data were processed

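The authors deposited 1 intensity for each of 45281 probes on each of 2 arrays, as whole numbers with a minimum of -16. From their range and their negative values they were treated as background-subtracted and linear. Per the labels' protocols, biotin-labelled total RNA was run on Illumina arrays. The background and scaling methods were not given in the sources used here, and no detection calls were used. Probes were named through the platform annotation (34885 had 1 symbol, 18 several and 10378 none), and the gene ID of all 91 members was found in the RefSeq gene table.

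Both arrays were quantile normalized, which hides any difference in total RNA. Floors, bounds and the 2-fold threshold are as in the report. The steps were tested on simulated data with known ratios. Those ratios were large and set in bright genes only, so calls near the floor were not covered. Python 3.11.15, numpy 2.4.6 and pandas 2.3.3 were used. Every member above a floor is named. From related lists the 4 largest ratios are named, and from marker lists every measured gene. The members and lists were chosen with earlier results of these data known. In all, 9 alternatives were tried. Probe, promoter and protein sequences were not used here.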

Additional observations from a re-analysis of the deposited data

How the results depend on the processing

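Counts and medians of the CD-named genes were recomputed under 9 alternatives. Relative to the 10 housekeeping genes above both floors, which were higher in fibers by a median log2 ratio of 0.94, the median of all measured genes moved to -0.69, and 3.96% of them were 2-fold or more higher in fibers and 44.7% in epithelium. Under that scaling 17 CD-named genes reached 2-fold in epithelium. The median log2 ratio was then -1.53 for all CD-named genes, -0.94 for the widely expressed class and -1.61 for the blood-cell class. Cd70, Cd81 and Cd2bp2 changed sign. With a common floor, 3 of 23 measured members were at 2-fold or more in epithelium, beside 15.8% of all measured genes. Cd300ld and Cd27 then fell below 2-fold. The medians were -0.29 for the CD-named genes, -0.12 for the widely expressed class and -0.43 for the blood-cell class, beside -0.03 for all measured genes. With the floor at the 99th percentile, 8 CD-named genes were measured, 4 widely expressed and 3 blood-cell, with 1 at 2-fold or more in fibers and 1 in epithelium, beside 11.01% and 14.9% of all measured genes. With the mean of all probes, 16 were measured, 8 of them blood-cell, and 2 were at 2-fold or more in epithelium, beside 15.8% of all measured genes. With the second brightest probe, 4 were measured, 2 widely expressed and 1 blood-cell, and 0 reached 2-fold in either direction, beside 13.6% of all measured genes in fibers and 15.5% in epithelium, while Cd99l2 changed sign to 0.02. In the last 3 settings fewer genes passed the floor by construction. Cd24a had a log2 ratio from 2.48 to 3.41 under the 8 alternatives that gave it a value. It has 1 probe, so the second brightest probe gave none. Cd300lb ranged from 0.65 to 2.68. Of 223 single values recomputed, 188 moved by less than the spread of 0.84 among silent probes, 35 moved by more, and none that was 2-fold changed sign. This tally depends on the alternatives chosen. The housekeeping scaling shifts ratios by 0.94, past that spread by construction, and a change of floor leaves many ratios from both arrays as they were. The number of arrays and signal near the floor limit the precision.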
